A study of Saccharomyces cerevisiae with 24 samples.

Results

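The 33 genes of ergosterol synthesis and sterol handling were followed through 3 yeast cultures held at different temperatures. They were taken by name from the known pathway and not from measured values, and each had 1 probe set on the array, so they make up 33 of the 5449 yeast genes measured. By role they are 9 genes of the mevalonate branch, 3 genes from farnesyl diphosphate to lanosterol, 7 genes of lanosterol demethylation, 5 genes of the final steps, 2 electron donors, 3 transcription factors and 4 genes of sterol esterification and transfer.

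Ergosterol is the main sterol of the fungal plasma membrane and takes the place that cholesterol has in animal cells. Acetyl-CoA is built up through mevalonate to farnesyl diphosphate, which is joined to squalene, closed to lanosterol and then trimmed, shifted and desaturated to ergosterol. Several of the later steps use molecular oxygen and heme, and the transcription factors Upc2 and Ecm22 raise transcription of the pathway when sterol runs short. Surplus sterol is esterified and stored in lipid droplets, and sterol content is one of the properties on which membrane fluidity depends when temperature changes.

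Saccharomyces cerevisiae strain S288C, with no allele or agent named in the labels, was grown in liquid SD medium at 28 °C. Cultures then stayed at 28 °C (control), went to 10 °C (cold) or went to 37 °C (heat), and each was sampled at 0, 15, 30 and 60 min and at 2, 4, 8 and 24 h. There was 1 array per culture and time, 24 arrays in all, so no value has a replicate check and no standard deviation can be given. RNA of the heat samples went through an additional Roche amplification kit that the control and cold samples did not, so amplification and heat series cannot be told apart.

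Values are log2 levels summarised with RMA, and a change is the difference from the 0 min array of the same culture, so that 1 stands for 2-fold. Levels of different genes are not set against each other, since each probe set has its own brightness. RMA gives arrays processed together the same brightness distribution, which hides any shift of total RNA among them. Whether all arrays were processed together is not given. In such bulk samples fewer cells of a kind and less RNA per cell cannot be told apart. Array medians of yeast genes lay between 10.69 and 10.78. Probe sets of other species set a background bound of 6.53, the 95th percentile of their mean levels. HES1 was the 1 member with a mean level below it, and it was below it on every heat array. ARE1 was below it on all 8 heat arrays, ARE2 on 5 of the 8 heat arrays and CYB5 on the heat array of 24 h, and 29 members were above it on every array. Where a level lies below it, a difference taken to the bound in place of that level is given as at least that size.

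At 0 min the cold and control cultures were close for these genes and the heat culture was not. Cold minus control ran from -0.44 for SUT1 to 0.33 for CYB5, and 0 of 33 members differed by 2-fold or more, where 0.551% of all genes did. Heat minus control reached 2-fold for 15 of 33 members, where 44% of all genes did. HES1, 1 of the 15, was below the bound in both cultures, and with levels set to the bound 14 members remained, beside 43.2% of all genes. The acyltransferase genes ARE1 and ARE2 read 5.10 and 5.90 in the heat culture, below the bound, against 9.93 and 9.75 in the control, which puts their differences at -3.40 and -3.22 or further down. ERG1 and ERG2 differed by -3.19 each, before any time at 37 °C had passed. UPC2 was higher by 1.44. Heat is therefore described below by the change from its own 0 min array, and the part of the amplification kit in any heat value was not tested.

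**Figure D1:**
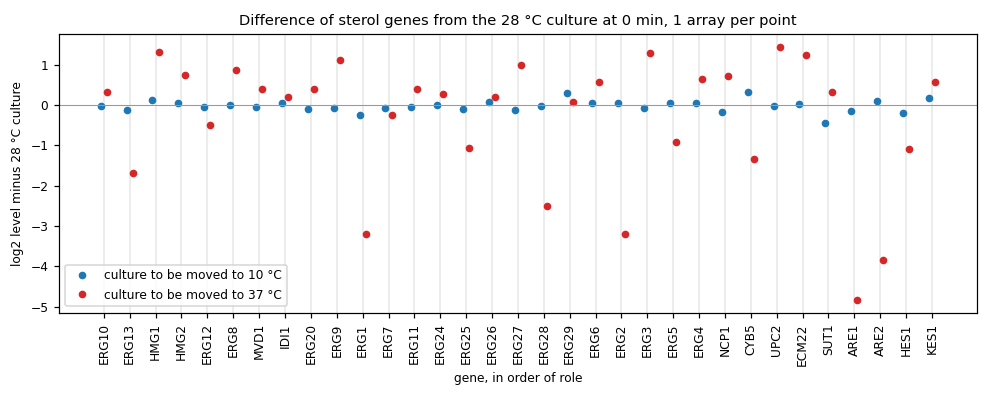
Difference at 0 min of the cold and of the heat culture from the control culture for each of the 33 genes, in log2 units, 1 point per gene and culture. Cold points lie between -0.44 and 0.33, whereas heat points run from -4.83 for ARE1, whose heat level is below the background bound, to 1.44 for UPC2.

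Through the first 8 h the median of the 33 genes stayed near its starting level in all 3 cultures. The median change lay between -0.21 and -0.01 in the control, between -0.14 and 0.09 in the cold and between -0.26 and 0.03 in the heat culture. At 8 h the 24 synthesis enzymes, from the mevalonate branch to the final steps, had medians of -0.22 in the control, -0.25 in the cold and -0.38 in the heat. Of these 24 enzymes 18, 17 and 17 were negative. In the control 1 gene, SUT1, reached 2-fold on any array up to 8 h, which is 3.03% of members beside 5.32% of all genes. In the cold 7 genes did (ERG8, ERG5, ERG4, SUT1, ARE1, ARE2 and HES1), which is 21.2% beside 32.7%. In the heat 6 genes did (HMG2, MVD1, ERG24, ERG3, CYB5 and ARE2), which is 18.2% beside 32.6%. ARE2 started from below the bound there, and taken to the bound it was still higher by at least 1.24 at 60 min. HES1 also started from below it in the cold, and taken to the bound it did not reach 2-fold up to 8 h, which leaves 6 genes beside 31.6% of all genes.

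**Figure D2:**
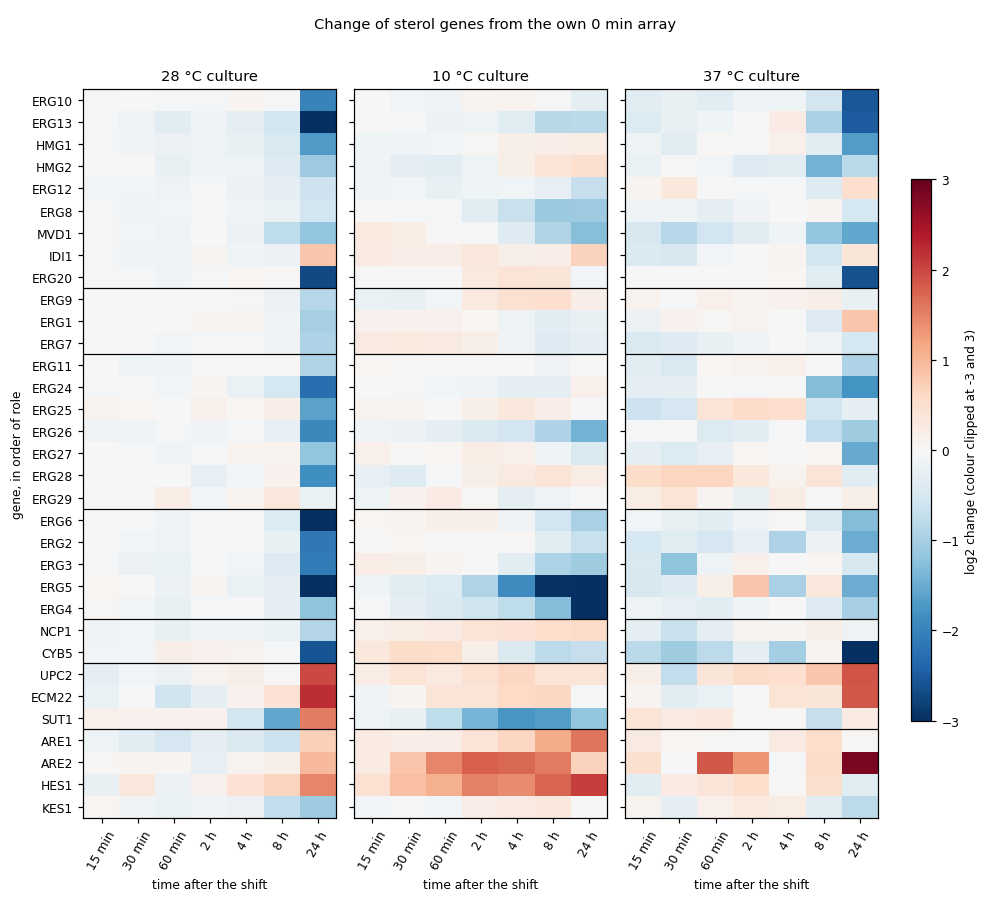
Change from the culture's own 0 min array, in log2 units, for the 33 genes (rows, grouped by role) on the 21 later arrays (columns, by culture and time). Most cells up to 8 h are pale, the cold columns show ERG5, ERG4 and SUT1 low and ARE1, ARE2 and HES1 high, and the 24 h columns of control and heat are low for most synthesis enzymes.

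The pathway was lower at 24 h in the unshifted control culture, where the median change was -1.10. It was -0.53 in the heat and -0.09 in the cold. On these arrays 18 members were at least 2-fold below their start in the control (20.5% of all genes), 13 in the heat (17.2%) and 7 in the cold (13%). At least 2-fold above it were 4 members in the control (20.3% of all genes), 3 in the heat (16.6%) and 2 in the cold (13.9%). With levels set to the bound the 4 higher in the control became 3, beside 19.8% of all genes, since HES1 dropped out. These are single arrays and carry no test.

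**Figure D3:**
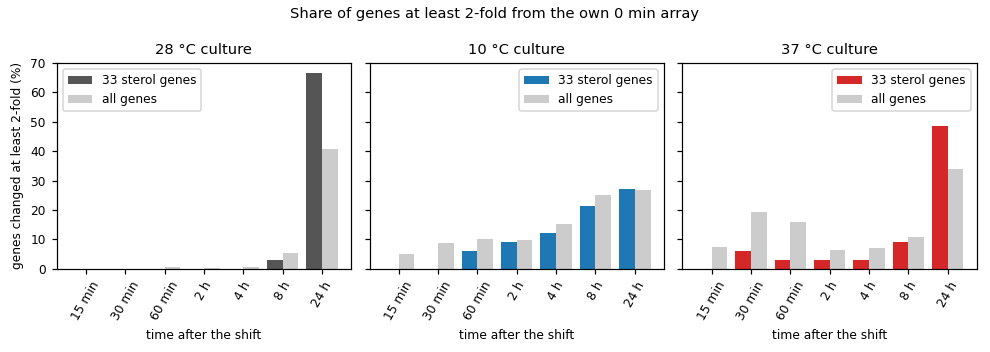
Percentage of genes at least 2-fold from their own 0 min array, by time and culture, for the 33 sterol genes and for all 5449 genes. In the cold and heat cultures the sterol genes lie below all genes at every time up to 8 h, and in the control at 24 h they lie above.

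Whether cold or heat moved the genes away from the control was asked with limma, fitted to all 24 arrays and 5449 genes with time as a block. Each value is the difference from the control at the same times minus that difference at 0 min. Adjusted p-values follow Benjamini and Hochberg, taken over the whole table, and a call needs one under 0.05. The first hour pools the arrays at 15, 30 and 60 min and the later window those at 2, 4 and 8 h. Times stand in for replicates, so the p-values measure the spread between times and not between independent cultures.

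None of the 33 members passed in the cold against control. In the first hour 0 of 33 passed, beside 0% of all genes, and 1 member had an unadjusted p under 0.05, where 9.52% of all genes did. In the later window 0 of 33 passed, again beside 0% of all genes, and 7 members had an unadjusted p under 0.05, where 21% of all genes did. Over the members the median difference was 0.08 in the first hour and 0.02 at 2 to 8 h, beside 0.01 and 0.04 over all genes.

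The 4 genes of sterol esterification and transfer, ARE1, ARE2, HES1 and KES1, read above the control on every cold array from 15 min to 8 h, although 0 of the 4 passed the test. At 0 min KES1 and ARE2 were already above it, by 0.18 and 0.10, and ARE1 and HES1 were below it. ARE2, which encodes an acyl-CoA:sterol acyltransferase, read 9.85, 10.09, 10.67, 11.31, 11.64, 11.56, 11.40 and 10.55 in time order from 0 min to 24 h in the cold, and 9.75, 9.79, 9.84, 9.84, 9.50, 9.86, 9.93 and 10.72 in the control. The cold arrays from 15 min to 8 h all lay above the control arrays of the same times, and at 24 h the order was turned. Its difference at 2 to 8 h was 1.67 ± 0.72 (SE, 3 arrays per culture; limma adjusted p = 0.215), not past the threshold.

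ARE1, its paralog with the same activity, read 9.78, 10.03, 9.97, 9.98, 10.19, 10.40, 10.89 and 11.39 in the cold and 9.93, 9.77, 9.62, 9.44, 9.67, 9.51, 9.28 and 10.64 in the control. Every later cold array lay above the control array of its time. Its difference was 0.53 ± 0.35 in the first hour and 1.16 ± 0.35 at 2 to 8 h (limma adjusted p = 0.0963 for the later window), neither past the threshold. Between the paralogs the timing differed, since the ARE2 change was largest at 2 h and the ARE1 change at 24 h. The change of ARE1 minus that of ARE2 was -1.38 at 2 h and 0.90 at 24 h in the cold.

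HES1 encodes a member of the oxysterol-binding protein family. It read 5.69, 6.16, 6.60, 6.75, 7.21, 7.10, 7.45 and 7.76 in the cold and 5.89, 5.66, 6.24, 5.72, 6.02, 6.32, 6.56 and 7.35 in the control. The cold arrays lay above the control arrays at each time after 0 min, but 6 of the first 7 control arrays were below the background bound, where RMA compresses differences. The cold arrays of 0 and 15 min were below it too. The difference of HES1 was 0.83 ± 0.34 in the first hour and 1.16 ± 0.34 at 2 to 8 h (limma adjusted p = 0.0878 for the later window), and neither passed. Taken to the bound, its cold changes were at least 0.07 and 0.22 at 30 and 60 min. At 2, 4 and 8 h they were at least 0.68, 0.57 and 0.92. KES1, another gene of that family, read between 11.72 and 12.12 on all cold arrays and between 10.52 and 11.69 on the control arrays.

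The last enzymes of the pathway went the other way. ERG5 (YMR015C) encodes the desaturase of the sterol side chain. It read 12.58, 12.44, 12.27, 12.18, 11.66, 10.69, 9.61 and 9.03 in the cold, each array lower than the one before. In the control it read 12.52, 12.56, 12.54, 12.34, 12.61, 12.32 and 12.23 up to 8 h and 9.40 at 24 h. At 8 h in the cold its change was -2.97, and 16 of 5449 genes, itself included, were as far or further below their start on that array.

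ERG4, the reductase of the final step, read 13.07, 13.02, 12.80, 12.63, 12.48, 12.30, 11.77 and 9.72 in the cold and 13.02, 13.05, 12.95, 12.80, 12.98, 12.96, 12.76 and 11.82 in the control. Its cold arrays also went down at every step, and those from 2 h on lay below all control arrays up to 8 h. At 24 h the cold change of ERG4 was -3.34 beside -1.20 in the control, and 18 of 5449 genes, itself included, were as far or further below their start. Over 2 to 8 h its difference from the control was -0.76 ± 0.23 (limma adjusted p = 0.0961), and that of ERG5 was -1.79 ± 0.74 (limma adjusted p = 0.197), neither past the threshold.

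The other genes of the final steps moved less in the cold up to 8 h. ERG6, the sterol methyltransferase, read between 12.65 and 13.41, ERG2, the sterol isomerase, between 12.94 and 13.31, and ERG3, the ring desaturase, between 11.78 and 12.93. At 8 h the changes of these 3 genes lay between -0.94 and -0.33, beside -1.30 for ERG4 and -2.97 for ERG5, and the contrast within the group was not tested. On the 8 h control array the 5 genes of the final steps lay between -0.41 and -0.23.

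**Figure D4:**
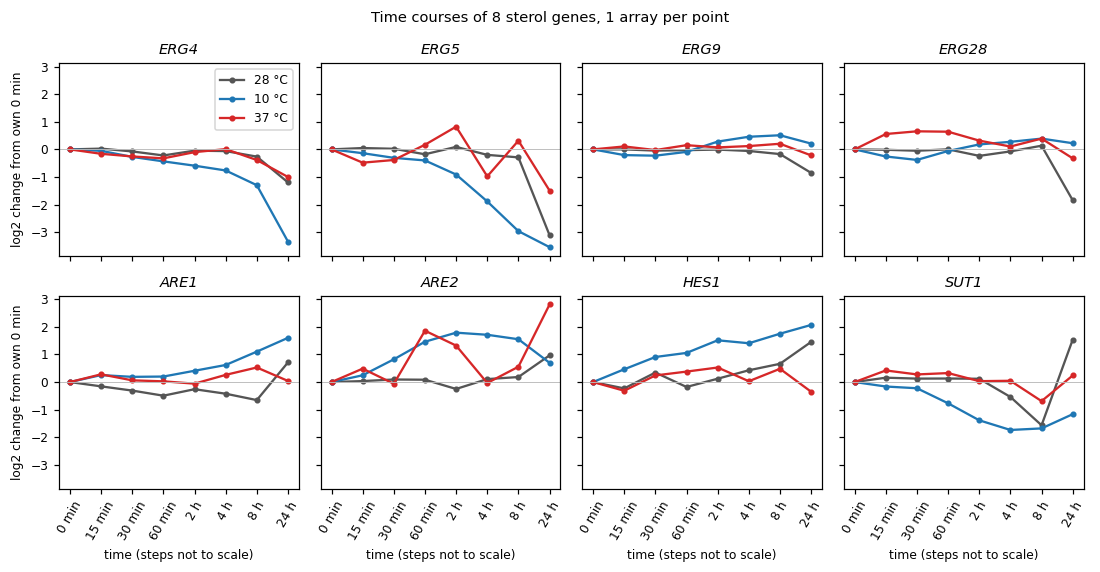
Change from the culture's own 0 min array, in log2 units, by time of sampling (time steps not to scale) for ERG4, ERG5, ERG9, ERG28, ARE1, ARE2, HES1 and SUT1 at 28, 10 and 37 °C, 1 array per point. At 24 h in the cold ERG5 is at -3.55 and ERG4 at -3.34, whereas ARE2 peaks at 1.79 at 2 h and ARE1 reaches 1.60 at 24 h.

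SUT1, a transcription factor that promotes sterol uptake when oxygen is low, read 9.23, 9.07, 9.0, 8.46, 7.84, 7.49, 7.55 and 8.06 in the cold. In the control it read 9.67, 9.83, 9.80, 9.80, 9.79, 9.13, 8.10 and 11.21, so it was also lower at 8 h without a shift. Its difference at 2 to 8 h was -0.94 ± 0.46 (limma adjusted p = 0.270), not past the threshold. The pathway activators UPC2 and ECM22 stayed between 8.10 and 8.71 and between 9.10 and 9.82 on the cold arrays.

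Comparing the later cold window with the first cold hour, each against the control, leaves out the 0 min arrays. With limma 3 of 33 members passed, where 24.7% of all genes did, and 9 members had an unadjusted p under 0.05, where 39.9% of all genes did. ERG9, the squalene synthase at the branch point from farnesyl diphosphate, was higher by 0.65 ± 0.15 (adjusted p = 0.0123). ERG28, a scaffold of the demethylation enzymes, was higher by 0.55 ± 0.16 (adjusted p = 0.0284).

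ERG4 was lower by -0.60 ± 0.16 in the same limma comparison (adjusted p = 0.0234). ERG5 differed by -1.54 ± 0.52 (adjusted p = 0.0511) and did not pass. It did pass in a limma fit of the cold and control arrays alone (adjusted p = 0.0221), which also called more of all genes. Over 12 alternative settings the limma adjusted p of ERG5 ran from 0.000188 to 0.150. ERG9 read 12.50, 12.48 and 12.62 in the first cold hour and 12.99, 13.17 and 13.22 at 2, 4 and 8 h, and control arrays stayed between 12.62 and 12.79 up to 8 h. ERG28 read 11.72, 11.59 and 11.92 and then 12.15, 12.25 and 12.36 in the cold. Neither gene's windows overlapped in the cold.

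These calls rested on few arrays. Without the arrays of 15 min, of 30 min or of 4 h 0 members passed, where 458, 328 and 240 of the 5449 genes did. Without 60 min 2 members passed beside 960 genes, without 8 h 1 passed beside 835 genes and without 2 h 8 passed beside 1782 genes. The limma adjusted p of ERG9 then reached at most 0.0718, that of ERG28 at most 0.126 and that of ERG4 at most 0.0998.

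Several genes of the earlier steps read lower in the cold at 8 h, others stayed near their start and some read higher. Of the mevalonate genes ERG8 was at -1.12, MVD1 at -0.91 and ERG13 at -0.83 from their start on the 8 h array, and ERG26 of the demethylation steps was at -0.92. On the 8 h control array MVD1 was at -0.76, ERG13 at -0.57, ERG26 at -0.25 and ERG8 at -0.21. MVD1 and ERG13 thus also read lower without a shift. ERG8, the phosphomevalonate kinase, read 12.41 at 0 min and 12.09, 11.73 and 11.28 at 2, 4 and 8 h, and 12.38, 12.28 and 12.20 in the control. HMG1 and HMG2 encode the HMG-CoA reductase isozymes, the main point of control of the pathway. Over all cold arrays HMG1 lay between 11.05 and 11.41 and HMG2 between 11.69 and 12.51. At 8 h they were at 0.19 and 0.39 from their start in the cold and at -0.47 and -0.39 in the control. ERG9 at 0.51, ERG28 at 0.39 and ERG20 at 0.36 were also above their start on the 8 h cold array. In the control these genes were at -0.17, 0.13 and 0.03. ERG11, the lanosterol demethylase that azole drugs inhibit, stayed between 13.33 and 13.49 on all 8 cold arrays.

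Among the electron donors, NCP1, the reductase that feeds the sterol cytochromes, read 12.81 at 0 min and 13.23, 13.26, 13.33 and 13.40 from 2 to 24 h in the cold. The control was between 12.11 and 12.99. Its difference was 0.35 ± 0.24 in the first hour and 0.60 ± 0.24 at 2 to 8 h (limma adjusted p = 0.181 for the later window), and neither passed. ERG7, the lanosterol synthase, differed by 0.29 ± 0.24 in the first hour and did not pass.

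Because 1 array per culture gives the starting point, subtracting it widens the errors. Where cold was set against the control without it, limma called 3 of 33 members in the first hour (32.7% of all genes) and 14 of 33 at 2 to 8 h (41% of all genes). Of the 14, 8 were higher, among them ARE2 by 1.77 ± 0.36, ARE1 by 1.01 ± 0.18 and HES1 by 0.95 ± 0.17. The control arrays of HES1 at 2 and 4 h were below the background bound. The other 6 were lower, among them ERG5 by -1.73 ± 0.37, SUT1 by -1.38 ± 0.23 and ERG4 by -0.71 ± 0.12. ERG8, ERG1 and ERG26 were also among the lower 6, and HMG1 among the higher 8. The share of members called, 14 of 33, is near that of all genes. A difference between the cultures that was there at 0 min stays in these values.

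At 37 °C no member passed either. In the first hour 0 of 33 passed with limma, where 0.0184% of all genes did, and 1 member had an unadjusted p under 0.05, where 8.35% of all genes did. In the later window 0 of 33 passed, where 0.0551% did, and 0 members had an unadjusted p under 0.05, where 5.51% of all genes did. The median over members was -0.09 in the first hour and 0.00 at 2 to 8 h. The median standard error of a member was 0.30. Without the 0 min subtraction 25 and 24 of 33 members were called in heat against the control, in the first hour and at 2 to 8 h, where 73.3% and 76% of all genes were.

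The 4 members with the smallest p in the first hour of heat were CYB5, MVD1, ERG7 and ERG28, and they differed in direction. CYB5, the cytochrome b5 that donates electrons to sterol desaturation, read 9.12 at 0 min and 8.31, 8.06 and 8.34 in the first hour at 37 °C, and 10.38, 10.38 and 10.67 in the control. Its difference was -0.90, MVD1, the mevalonate diphosphate decarboxylase, differed by -0.57 and ERG7 by -0.34. ERG28 differed by 0.64 ± 0.23 (limma adjusted p = 0.539), none of the 4 past the threshold. ERG28 read 9.50 at 0 min and 10.05, 10.15 and 10.14 in the first hour, so all 3 arrays lay above its start, and then 9.81, 9.60 and 9.89.

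Single heat arrays stood out for several members. ERG3 read 13.63, 12.87 and 13.94 at 15, 30 and 60 min and 14.23 at 2 h, so its 2-fold change came from the 30 min array alone. ERG5 read 12.43, 10.63 and 11.93 at 2, 4 and 8 h, and ARE2 read 5.84, 7.77, 7.23 and 5.87 from 30 min to 4 h, the first and last of them below the background bound. Such scatter enters the spread that all 3 cultures share in the fit. At 2 to 8 h the members with the smallest p were ARE1 at 0.69, ERG28 at 0.33, KES1 at 0.41 and ERG10, the acetoacetyl-CoA thiolase, at -0.27, none past the threshold. ARE1 was below the background bound on all 8 heat arrays.

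The later heat window against the first heat hour also gave 0 of 33 members with limma, where 0.147% of all genes passed and 2 members had an unadjusted p under 0.05 (20.2% of all genes). The median over members was 0.16, with 23 members positive and 10 negative, beside -0.01 over all genes. NCP1 was at 0.53 ± 0.17 (adjusted p = 0.161), ERG28 at -0.31, and ERG3 and ERG7 completed the members with the smallest p.

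Heat and cold changes were then set against each other. In the first hour 1 of 33 members passed with limma, where 16.2% of all genes did. ERG28 was higher in heat than in cold by 0.85 ± 0.23 (adjusted p = 0.0290). On the arrays its changes were 0.56, 0.66 and 0.64 in heat and -0.26, -0.38 and -0.06 in cold, so the cultures did not overlap. The call was lost without the arrays of 15 min (adjusted p = 0.0537), 30 min (0.116) or 4 h (0.0592) and in a fit of the heat and cold arrays alone (0.175), and 2 members passed without 8 h, beside 1265 of the 5449 genes.

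The sign of the ERG28 difference also turned, to -1.63, when 0 min was not subtracted. The gene stood at 9.50 in the heat and 11.97 in the cold culture at 0 min. That fit called 25 members in the first hour and 25 at 2 to 8 h, where 77.9% and 76% of all genes were called. With 0 min subtracted, CYB5 at -1.35, MVD1 at -0.82 and ERG7 at -0.63 had the next smallest p in the first hour and did not pass. Over the later window 0 of 33 members passed with limma, where 6.5% of all genes did, and 5 had an unadjusted p under 0.05 (24.8% of all genes). HES1 was at -1.21 ± 0.34 (adjusted p = 0.0558), SUT1 at 1.40 ± 0.46 (adjusted p = 0.0892), ERG4 at 0.73 and ERG5 at 1.98 ± 0.74 (adjusted p = 0.127). HES1 was below the background bound on every heat array, so its heat change cannot be read. Taken to the bound, its cold changes at 2, 4 and 8 h were at least 0.68, 0.57 and 0.92.

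By 24 h the control culture itself had moved. Of the 24 synthesis enzymes 16 were at least 2-fold below their start in the control and 0 above, with a median change of -1.41. The median was -0.96 in heat, with 12 at least 2-fold lower, and -0.28 in cold, with 6 lower. ERG13, the HMG-CoA synthase, was at -4.0 in the control, at -2.51 in heat and at -0.81 in cold. ERG6 was at -3.09 in the control and at -0.97 in cold.

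ERG20, the farnesyl diphosphate synthase, was at -2.71 in the control and -2.62 in heat, and read 12.97 in the cold at 24 h against 13.06 at 0 min. ERG28 read 10.16 in the control at 24 h and 12.20 in the cold. IDI1, the isopentenyl diphosphate isomerase, was the 1 mevalonate gene that stood higher in the control, at 0.82.

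Of the transcription factors, UPC2 and ECM22 read higher at 24 h in the control and in heat, and over the 3 cultures none of the 3 factors passed (limma adjusted p = 0.0839 for UPC2, 0.123 for ECM22 and 0.817 for SUT1). UPC2 was at 1.98 in the control and 1.89 in heat, ECM22 at 2.21 and 1.86, and in the cold they read 8.49 and 9.18 against 8.10 and 9.20 at 0 min. SUT1 was at 1.54 in the control, at 0.24 in heat and at -1.17 in the cold. ARE2 was at 0.97 in the control and higher by at least 2.19 in heat, where it started below the background bound. HES1 also started below it and was higher by at least 1.23 in cold and 0.82 in the control.

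Set against the control, the 24 h change in the cold was higher by a median of 0.89 over the members, with 23 positive and 10 negative, beside 0.04 over all genes. At least 2-fold higher were 15 members, where 20.7% of all genes were, and at least 2-fold lower were 4, where 18% were. These are differences between 4 single arrays and were not tested.

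**Figure D5:**
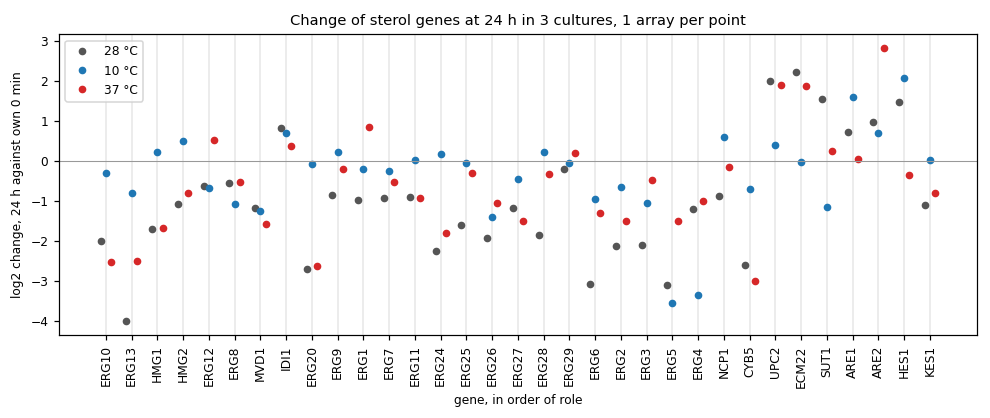
Change at 24 h from the culture's own 0 min array, in log2 units, for each of the 33 genes in the control, cold and heat cultures, 1 point per gene and culture. In the control ERG13 is lowest at -4.0 and ECM22 highest at 2.21, and in the cold ERG5 and ERG4 are lowest at -3.55 and -3.34.

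With the 3 cultures standing in for replicates, limma on the 6 arrays of 0 min and 24 h called 1 of 33 members, where 7.51% of all genes passed (4.37% higher and 3.14% lower), and 16 members had an unadjusted p under 0.05, where 30.6% of all genes did. ERG5 fell by 2.72 ± 0.46 (3 cultures; adjusted p = 0.0300), and its changes were -3.11 in the control, -3.55 in the cold and -1.49 in the heat. The call was lost without the cold culture (adjusted p = 0.0519) and without the control culture (0.111), and 9 members passed without the cold culture, where 476 of the 5449 genes did. ERG26, a sterol dehydrogenase of the demethylation complex, at -1.48, CYB5 at -2.10 and ERG13 at -2.44 had adjusted p-values of 0.0515, 0.0516 and 0.0536 and did not pass. The median over members was -0.65, with 26 negative and 7 positive.

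The paralog pairs did not move in parallel on all arrays. HMG1 minus HMG2, as a difference of changes, lay between -0.27 and 0.25 in the cold and between -0.87 and 1.04 in heat. UPC2 minus ECM22 stayed between -0.39 and 0.58 over all cultures. HES1 minus KES1 was positive on all 7 later cold arrays, from 0.54 to 2.05, and on 6 of 7 control arrays, from -0.29 to 2.56 over all of them, with HES1 below the background bound on many. These are descriptions of single arrays.

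Of 33 further genes 32 were measured. They cover sterol uptake, ester breakdown, transfer, acetylation and export, Hmg2 turnover, and some other genes such as DAP1 and HAP1. In the cold, comparing 2 to 8 h with the first hour, 6 of 32 were higher and 1 lower with limma, beside 13.2% and 11.5% of all genes. YEH1, a steryl ester hydrolase, fell by 2.02 ± 0.29 (adjusted p = 0.00286), with cold changes of 0.52, 0.42, -0.01, -0.85, -1.65, -2.26 and -2.53. TGL1, another steryl ester hydrolase, rose by 0.74 and HRD1, the ubiquitin ligase that degrades Hmg2, by 0.90. The sterol transfer genes OSH2, LAM5 and LAM6 rose by 1.0, 0.97 and 0.66, and NSG2, an Insig relative, by 0.63. OSH2 and LAM5 came from below their start, with OSH2 at -0.65, -1.01 and -1.09 in the first cold hour and at -0.69, 0.06 and 0.59 at 2, 4 and 8 h, and LAM5 between -0.62 and -0.48 in the first hour. TGL1, HRD1 and NSG2 were likewise below their start on all 3 arrays of that hour. The lowest gene of the list in that hour was OSH6, at -1.34 at 60 min, which did not pass.

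Between heat and cold, 6 of the 32 were higher in heat in the first hour, namely SWH1, OSH2, OSH7, LAM5, HRD1 and DAP1, beside 7.82% of all genes. In the later window YEH1 was higher in heat by 1.72 and SWH1 by 1.07, and AUS1, a sterol importer, was lower by -1.63 (limma adjusted p = 0.0334), beside 3.78% of all genes higher and 2.72% lower. AUS1 was 1.02, 1.19 and 0.83 above its start on the cold arrays of 2, 4 and 8 h and 2.79 above it on the control array of 24 h. In cold and in heat against the control 0 of 32 passed in either window. Of all genes 0% passed in both cold windows, and 0.0184% and 0.0551% in the heat windows. At 24 h against 0 min 0 of 32 passed with limma, where 7.51% of all genes did, with a median of -0.10.

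Genes of growth and of stress moved in opposite directions with cold and heat at the same times, and their part in the sterol values was not tested. Of 12 ribosome biogenesis genes 12 were positive in the first cold hour, with a median of 1.06, and 0 in the first heat hour, with a median of -1.68. Of 12 general stress genes 0 were positive in the first cold hour, with a median of -1.75, and 12 in the first heat hour, with a median of 1.10. None of these 24 passed singly against the control in that hour, where 0% of all genes did in the cold and 0.0184% in the heat. Between heat and cold in the first hour 11 of the 12 ribosome biogenesis genes were lower and 9 of the 12 stress genes higher with limma, beside 8.42% and 7.82% of all genes.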

How the data were processed

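The authors deposited log2 values, 1 per probe set and array, made with RMA according to the submitters' processing notes. Its version, and whether 1 run covered every array, is not given in the sources used here. Per the labels, 1 biotin-labelled array was run per culture and time.

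Of 10928 probe sets 5498 have 1 yeast gene in the platform annotation, 1 has several genes, 1746 belong to other species and 3683 are unnamed here. Probe sets of 47 genes were averaged, leaving 5449 genes. Names were updated through the RefSeq gene table of assembly R64.

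Changes from 0 min and limma 3.58.1 fits (R 4.3.3) were computed from the deposited log2 values without further normalization, with 8 residual and 3.41 prior degrees of freedom for all 24 arrays and 2 and 4.98 for 24 h against 0 min, and were tested on simulated data. Tested values are printed for members past an adjusted p of 0.05 and otherwise for the 4 members with the smallest p. ARE2, SUT1 and ERG5 are named further because their levels stood out. The number of arrays limits the precision. The members, lists and tests were chosen with earlier results of these data known. Alternatives were the 0 min baseline, the windows, the arrays in the fit, array weights, renewed quantile normalization, a filter on dim genes and the probe set rule. No sequence was used here.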

Additional observations from a re-analysis of the deposited data

Results flagged for a closer look

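For some sterol genes the heat and the cold change had opposite signs in a window. By the test of the difference, ERG28 was higher in heat than in cold in the first hour by 0.85 (limma adjusted p = 0.0290). The remaining values were picked out because the change minus that of the control at the same time had one sign on all 3 arrays of a window in heat and the other sign in cold. The signs alone are no test, since the 3 arrays of a window share the 0 min arrays that were subtracted. The share of all genes with such signs was not counted. The limma test of the same differences passed for ERG28 alone among the genes picked out.

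In the first hour the heat change minus the cold change was 0.26 for ERG12, 0.25 for ERG9, 0.85 for ERG28 and 0.73 for SUT1. It was -0.82 for MVD1, -0.63 for ERG7, -0.39 for ERG27, -0.33 for ERG6, -0.45 for ERG2, -0.62 for NCP1 and -1.35 for CYB5. At 2 to 8 h it was -0.32 for ERG10. No explanation of these values was tested.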

How the results depend on the processing

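Arrays of the same time were already matched across cultures by the time block. No paired analysis was possible beyond that block, because there were no replicate arrays to pair. Each comparison has 1 array per time, so precision is limited by the number of arrays, and heat cannot be told apart from its amplification kit. Of 421 alternative values of single named genes, 353 kept their direction and side of the threshold, 43 newly passed, 20 no longer passed and 5 turned sign. The cause of the shifts below was not tested.

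Without the 0 min baseline, 3 and 14 members were called in the cold in the first hour and at 2 to 8 h (32.7% and 41% of all genes). In heat 25 and 24 were called (73.3% and 76% of all genes), with medians of 0.14 and 0.13. For heat against cold 25 and 25 were called (77.9% and 76% of all genes), with medians of 0.12 and 0.0493. ERG28 turned to -1.87 and -2.18 in the heat windows and to -1.63 for heat against cold in the first hour. In heat at 2 to 8 h ERG10 turned to 0.0538 and ARE1 to -4.145. ARE1 was below the background bound on all 8 heat arrays, so the size of its value cannot be read. With 24 h in the late window the median was 0.20 in cold, 0.0888 in heat and -0.145 for heat against cold, and 1 member passed in cold late against early, with a median of 0.0812. With array weights, 9 members passed in cold at 2 to 8 h (1429 genes), 22 in cold late against early (3713 genes), and 7 and 4 for heat against cold (1797 and 1248 genes). With 2 series alone 9 passed in cold late against early (2263 genes) and 0 for heat against cold in the first hour (0 genes). At 24 h, 25 members passed against the mean of 0 to 60 min (2718 of 5449 genes) and 4 with dim genes left out (421 genes). Setting levels below the background bound to that bound, chosen after seeing the data, moved counts of 2-fold members by at most 1.

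Leaving out 1 time each gave 0 to 1 members in cold at 2 to 8 h, 0 to 8 in cold late against early (median -0.10 to -0.0176), and 0 to 2 (median -0.23 to -0.13) and 0 to 3 for heat against cold in the first hour and at 2 to 8 h. Leaving out 1 culture gave 0 to 9 members at 24 h (19 to 476 genes). Over all alternatives, genes called ranged from 240 to 3713 in cold late against early, beside 1348 as reported, and from 0 to 4245 for heat against cold in the first hour, beside 885.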

Other observations

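Genes that use farnesyl diphosphate for products other than sterols were described in the same way. In the cold, comparing 2 to 8 h with the first hour, limma called 2 of 10 such genes higher and 1 lower. Of all genes 13.2% and 11.5% were called, and counts this small do not set the list apart. The list median was -0.04, beside 0.01 over all genes. COQ1, which makes the ubiquinone side chain, rose by 0.91, COX10, a heme farnesyltransferase, rose by 0.75 and RER2, a dehydrodolichyl diphosphate synthase, fell by 0.97. At 24 h in the control culture 0 of the 10 were above their start, with a median of -0.89, beside -1.41 for the sterol enzymes on the same array.

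Of 12 measured genes known for their induction when oxygen is low, 2 were higher in the cold at 2 to 8 h than in the first hour, beside 13.2% of all genes. TIR4, a cell wall mannoprotein, rose by 1.73. CYC7, an isoform of cytochrome c, rose by 3.74 from far below its start, at -2.78, -4.21 and -4.08 in the first cold hour and at -2.50, -0.34 and 0.95 at 2, 4 and 8 h. TIR4 was also 2.74 to 3.13 above its start on the cold arrays from 2 to 8 h, and between -0.15 and 0.11 from it on the control arrays up to 8 h. In cold and in heat against the control 0 of the 12 passed in either window with limma. Of all genes 0% passed in both cold windows, and 0.0184% and 0.0551% in the heat windows.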
